A study of Mus musculus with 4 samples.

Results

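Cells carrying hashtag 4 were compared with cells carrying hashtag 3 in the second of 2 pooled single-cell experiments on early mouse T-cell progenitors. A hashtag is an oligonucleotide on an antibody that labels all cells of 1 culture, so that pooled cells can be traced back to it. The 8 hashtag columns were numbered 1 to 8 in the order of the deposited table. A cell was kept with at least 500 detected genes and under 10% of its unique molecular identifiers (UMIs, which count captured RNA molecules) from mitochondrial genes. It was given the hashtag with the highest count where that count was at least 50 and at least 3 times the second. Tag 3 held 1312 cells and tag 4 held 1170, together 2482 of the 8335 tagged cells of experiment 2 and of 17132 tagged cells in both experiments. Close to these limits, 5 of the cells had a top count of 50 to 59 and 50 had a ratio of 3 to under 3.5. A further 16 cells led by either hashtag had 40 to 49 counts, and 47 with enough counts had a ratio of 2.5 to under 3.

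The cells came from bone marrow of Bcl2 transgenic mice and were grown on OP9-Dll1, a stromal line that presents the Notch ligand Dll1, with IL-7 and Flt3-ligand at 10 ng/ml. Per the series design, the cultures of the series were of 4 kinds: an MSCV retrovirus carrying Runx1 with mCherry, the empty MSCV vector with mCherry, E42 guide vectors against Runx1 and Runx3 in progenitors of Cas9 and Bcl2 transgenic mice, and E42 control guides against luciferase in the same Cas9 mice. Vectors were added on day 2, and the cultures of experiment 2 had spent 4 to 8 days in all. The age of 8 to 10 weeks is stated for the mice of the overexpression arm, and the sort kept live, lineage marker-negative, CD45+ cells that carried the vector reporters. The hashtag columns name no condition, so neither tag is assigned a vector, a guide or a day here. There was 1 culture a side and therefore no replicate check and no test. The intervals below are 95% intervals that cover counting error alone. The pair was chosen by these same summed gene counts, tag 4 against tag 3, so the values describe these cultures and support nothing further.

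The hashtags are shown because they alone define the comparison, and the whole barcode is in capitals, as the column headers give it.
Tag 3: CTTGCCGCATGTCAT
Tag 4: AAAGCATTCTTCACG

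Early T-cell progenitors enter the thymus with a stem and progenitor gene programme that includes Kit, Cd34 and factors such as Spi1, Lmo2 and Bcl11a. Notch signalling then turns on Tcf7 and Gata3, and commitment to the T lineage follows with the activation of Bcl11b, the CD3 genes and the recombination machinery. Runx factors, which bind DNA with their partner Cbfb, take part in both steps and also act in innate lymphoid and cytotoxic lymphocytes.

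Tag 3 had the most UMIs in sum, and the cells of tag 4 had the lowest median depth of the 8 tags. The summed UMIs were 42684236 in tag 3 and 26141069 in tag 4, in a range of 22272716 to 42684236 over the 8 tags. A cell of tag 3 had a median of 30799.5 UMIs and 4868.5 genes, and a cell of tag 4 had 19543 UMIs and 4052 genes. The median mitochondrial share was 3.53% in tag 3 and 3.86% in tag 4. The 2 experiments shared 39 of their 9967 and 10556 cell barcodes. Beside this depth gap, thinning every cell to 5000 UMIs gave ratios of tag 4 to tag 3 of 11.7 for Cd3g, 9.71 for Bcl11b, 71.1 for Pgam2, 0.362 for Cd34 and 0.211 for Hbb-bt, genes described below. The label of the samples is Kit-high double-negative progenitors, and Kit, the receptor for stem cell factor, stood at 35.1 counts per 1e+06 UMIs (CPM) in tag 3 and 40.2 CPM in tag 4. Cd4, which such cells should lack, had no UMI in either tag. Cd8b1, a CD8 subunit gene that such cells should lack too, was at 11.3 CPM in tag 3 and 52.1 CPM in tag 4, from 41 and 105 cells.

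Markers of other cell types were present in both tags and were mostly higher in tag 4. The 10 mast cell or basophil markers summed to 232 CPM in tag 3 and 849 CPM in tag 4, the 12 OP9 stromal markers to 209 and 410 CPM, and the 11 granulocyte markers to 1415 and 1835 CPM. The number of cells with at least 10 granulocyte marker UMIs went the other way, with 408 in tag 3 and 115 in tag 4. The limit of 10 UMIs applied to unthinned cells, and tag 3 had more and deeper cells. NK-cell markers summed to 40.1 and 127 CPM and the mature cytotoxic T-cell markers to 916 and 1848 CPM. Of the latter sums Trbc2, a T-cell receptor constant gene, made up 663 and 726 CPM. Trbc2 ran from 562 to 996 CPM over the 8 tags, so it does not set mature cells apart here. Type 2 innate lymphoid markers summed to 49.5 and 125 CPM, of which Gata3, also a T-lineage factor, made up 36.1 and 102 CPM. Il13 and Il1rl1 had ratios of 0.341 and 0.617, from 67 and 14 UMIs of Il13 and 45 and 17 of Il1rl1. Over the 16 processing alternatives these ratios ran from 0.160 to 3.81 and from 0.190 to 1.15, so their direction is uncertain. B-lineage markers summed to 74.3 and 119 CPM and dendritic cell markers to 2363 and 2549 CPM. Monocyte and macrophage markers were lower in tag 4, at 277 and 228 CPM. The erythroid and megakaryocyte markers summed to 2188 CPM in tag 3 and 644 CPM in tag 4, nearly all of it Hbb-bt, with 2175 and 626 CPM. Of the 9 markers of this list, 4 were higher in tag 4, among them Pf4 at 7.61, Gata1 at 1.61 and Hba-a1, which was too low for a ratio. Hbb-bt, Hbb-bs and Car1 were at least 2-fold lower. Among the defining markers, Tpsb2 of mast cells, Klra8 of NK cells and Hba-a2 of red cells had no UMI in either tag. In sums over cells, fewer cells of a type and less RNA per cell cannot be told apart.

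Tag 4 differed from tag 3 by at least 2-fold in 136 of 5172 genes (2.63%), mainly in genes higher in tag 4. A gene was compared where the mean of the 2 tags was at least 20 CPM. In tag 4, 118 genes (2.28%) were at least 2-fold higher and 18 genes (0.348%) were at least 2-fold lower. The ratio of tag 4 to tag 3 had a median of 1.03 over all genes compared, and its 5th and 95th percentiles were 0.745 and 1.59. With TMM scaling, which shifts the median log2 ratio by -0.14, the counts were 86 higher and 34 lower, so the share of higher calls went from 86.8% to 71.7%. DESeq2 size factors gave 84 and 35. Just inside the fold limit stood Rasa4 at 2.01, Hemgn at 2.01, Lair1 at 0.494 and Mef2c at 0.491. Just outside it stood Trat1 at 1.996, Igf1r at 1.995, Rangrf at 0.502 and Fam212a at 0.508.

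**Figure D1:**
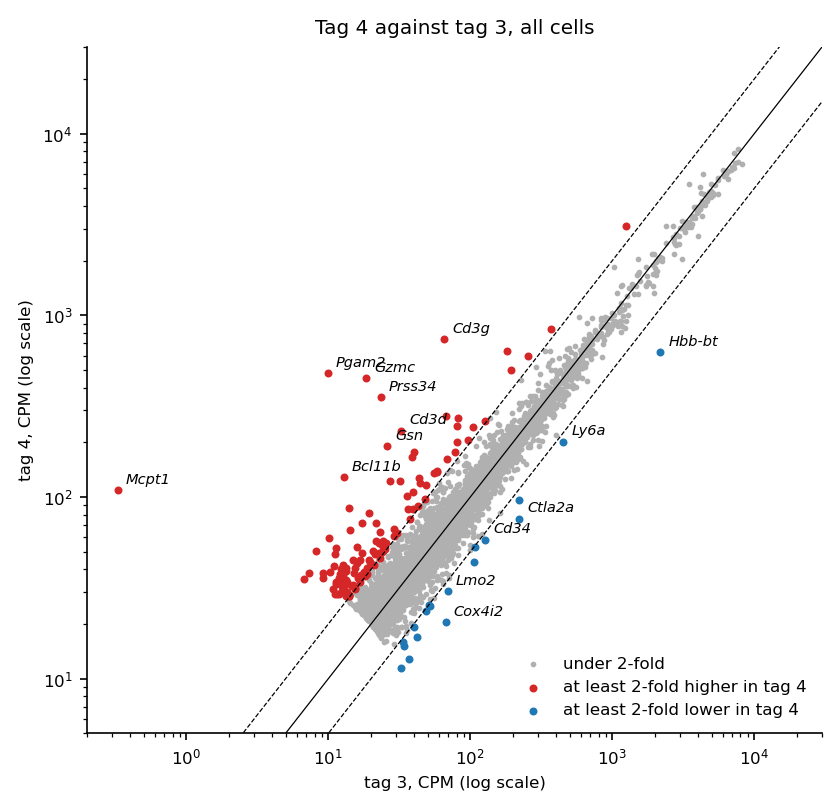
Level of each of the 5172 genes in tag 3 (x axis, CPM, log scale) and tag 4 (y axis, CPM, log scale), with the solid line at equality and dashed lines at 2-fold. The 118 genes at least 2-fold higher in tag 4 (red) outnumber the 18 at least 2-fold lower (blue), and Mcpt1, Pgam2, Gzmc, Prss34 and Cd3g lie farthest above the line.

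The CD3 and pre-T receptor genes were the most shifted T-lineage group. Cd3g, a subunit of the CD3 complex that carries the T-cell receptor signal into the cell, was at 64.9 CPM in tag 3 and 743 CPM in tag 4. Across the 8 tags in order its level was 20.9, 125, 64.9, 743, 79.2, 27.2, 633 and 112 CPM. Tags 4 and 7 stood apart from the other 6. The ratio of tag 4 to tag 3 was 11.4 (11 to 11.9). Cd3d and Cd3e, the partner subunits, had ratios of 7.11 and 5.28, and Cd247, the zeta chain, was under the level limit at 9.30 and 16.9 CPM.

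Several genes for building the receptor were also higher in tag 4, most of them at low levels. Dntt, which adds bases at receptor gene joints, was at 23.3 CPM in tag 3 and 63.9 CPM in tag 4 (ratio 2.75). Ptcra, the pre-T alpha chain, stood at 1.01 CPM in tag 3 and 13.3 CPM in tag 4, above all other tags, which ran from 1.61 to 5.31 CPM. Rag1 and Rag2, the recombinase genes, had 1.24 and 2.74 CPM in tag 3 against 9.68 and 12.7 CPM in tag 4. Tag 4 was not the highest tag for these recombinase genes: tag 8 had 14.7 CPM of Rag1 and tag 7 had 13.8 CPM of Rag2. Among the constant regions, Trbc1 and Trdc had ratios of 2.28 and 2.05, whereas Trbc2 was at 663 and 726 CPM and Tcrg-C1 at 163 and 166 CPM. Tcrg-C2 was lower in tag 4, at 124 and 97.5 CPM. In all, 11 of the 15 listed genes passed the level limit. Of the 11, 7 were at least 2-fold higher and none lower, beside 2.28% and 0.348% of all genes compared. The median ratio of the 11 was 2.28, beside 1.03 over all genes. Above 1 were 10 of the 11, or 8 with TMM scaling. A gene that passes this limit only through the tag where it is high is bound to differ, so such counts are given as a description.

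Bcl11b, the factor that marks commitment to the T lineage, was at 12.8 CPM in tag 3 and 128 CPM in tag 4. Over the 8 tags in order its level was 2.04, 15.6, 12.8, 128, 10.1, 4.75, 63.4 and 22.9 CPM, so tag 4 was the highest and tag 7 the second. The ratio of tag 4 to tag 3 was 10.0 (9.14 to 11). Among the other commitment factors, Patz1 and Id3 had ratios of 1.96 and 1.93 and Satb1, a chromatin organiser, 1.66. Lef1, the relative of Tcf7, was under the level limit at 4.80 and 22.3 CPM, and Tox2 at 0.328 and 11.1 CPM. Of 14 listed commitment factors 5 passed the level limit. Bcl11b was the only 1 of the 5 at least 2-fold apart in all cells, beside 2.63% of all genes compared. The median of the 5 was 1.93.

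The factors that specify the T lineage were higher in tag 4 by smaller folds. Gata3 had 36.1 CPM in tag 3 and 102 CPM in tag 4, and the other 6 tags ran from 24.8 to 85.1 CPM. Hes1, a direct Notch target, had 55.7 and 136 CPM. Tcf7, which encodes the Notch-induced factor TCF1, had 96.7 and 206 CPM. For all 3 genes tag 4 was the highest tag and tag 2 the second. The ratios were 2.82 for Gata3, 2.44 for Hes1, 2.13 for Tcf7 and 2.16 for Tcf12, an E protein partner. The last 2 were under 2-fold with TMM or DESeq2 scaling. Of 11 listed factors 9 passed the level limit, 4 were at least 2-fold higher and none lower, beside 2.28% and 0.348% of all genes compared, and all 9 had a ratio above 1, also with both other scalings. Myb and Ikzf1 lay in between at 1.61 and 1.72.

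Notch pathway genes did not shift together. Notch1, the receptor, had a ratio of 1.35, and Notch3, itself a target, stood under the level limit at 2.13 and 5.70 CPM. The targets Dtx1 and Il2ra were lower in tag 4, with 31.1 against 18.1 CPM and 176 against 126 CPM, while Hes1 was higher. Nrarp, a feedback inhibitor of Notch, had 18.7 CPM in tag 3 and 9.68 CPM in tag 4. The 4 of 11 listed genes past the level limit had a median ratio of 1.03, which became 0.940 with TMM scaling, with 2 above 1 and 2 below under both.

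Kinases and adaptors of the T-cell receptor were partly higher. Skap1, an adaptor for integrin adhesion, had 19.2 CPM in tag 3 and 82.1 CPM in tag 4, and the other 6 tags ran from 4.93 to 53.9 CPM. Lck, the proximal kinase, had 105 and 241 CPM, and Thy1, a T-cell surface glycoprotein, had 58.3 and 138 CPM. The ratios of these 3 genes were 4.27, 2.30 and 2.37. Themis, a signalling gene of thymocyte selection, stood at 2.04 CPM in tag 3 and 29.9 CPM in tag 4, against 0.233 to 3.73 CPM in the other tags. By contrast Lcp2, which encodes the adaptor SLP-76, and Cd27 had ratios of 0.787 and 1.01. Of 21 listed genes 10 passed the level limit, with a median of 1.60. Of the 10, 3 were at least 2-fold higher and none lower, beside 2.28% and 0.348% of all genes compared.

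**Figure D2:**
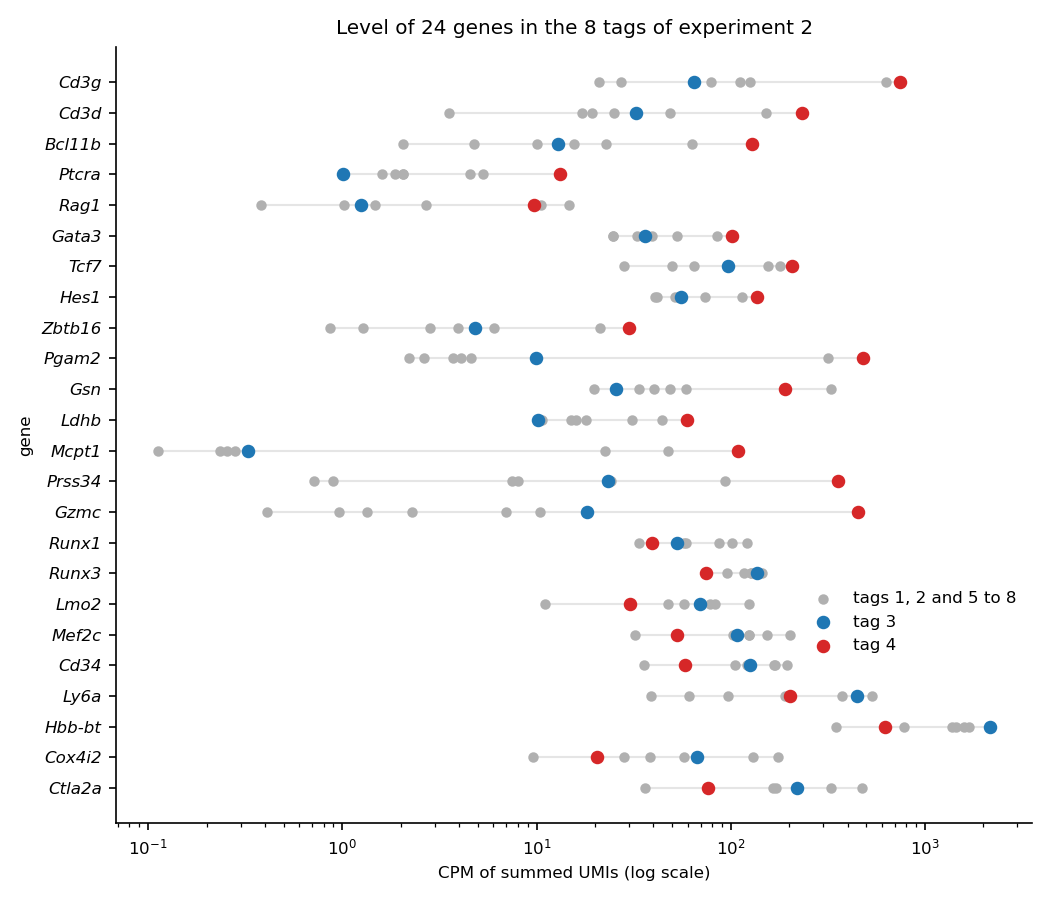
Level of 24 genes (CPM of summed UMIs, log scale) in tag 3 (blue), tag 4 (red) and the 6 other tags of experiment 2 (grey), with 1 point per tag. Tag 4 is the highest tag for Cd3g, Bcl11b and Pgam2, and the lowest for Runx3.

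Progenitor transcription factors were mostly lower in tag 4. Lmo2, a stem and progenitor cofactor, was at 69.4 CPM in tag 3 and 30.4 CPM in tag 4 (ratio 0.438, 0.405 to 0.474). Mef2c and Bcl11a, which act in early and lymphoid-primed progenitors, had ratios of 0.491 and 0.526. Tag 7 was lower still than tag 4 for Lmo2 and Mef2c, with 11 and 32.2 CPM, and tag 6 was the highest, with 124 and 201 CPM. Spi1, which encodes PU.1, was at 185 and 139 CPM. Of 21 listed progenitor factors 12 passed the level limit. Of the 12, 2 were at least 2-fold lower and none higher, beside 0.348% and 2.28% of all genes compared. The median of the 12 was 0.812, and 1 gene was above 1. Mycn was that gene, at 18.5 and 26.3 CPM. Under the level limit, Gata2, Cebpa and Gfi1b were higher in tag 4, with 4.64, 5.67 and 9.21 CPM in tag 3 against 10.7, 8.53 and 11.02 CPM in tag 4. Gata2 is also among the mast or basophil markers. The lowest ratios of these genes over the 16 alternatives were 0.581, 0.716 and 0.968, so their direction depends on the cells used or the scaling.

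Surface genes of progenitors were split. Cd34, a stem and progenitor antigen, was at 126 CPM in tag 3 and 58.3 CPM in tag 4, and Ly6a, which encodes Sca-1, was at 448 and 202 CPM. Their ratios were 0.461 and 0.450. The 8 tags spread widely for Ly6a, from 38.9 CPM in tag 2 to 535 CPM in tag 6. Kit, with a ratio of 1.15, was not lower. Flt3, the receptor for the added Flt3-ligand, was low in both tags at 2.69 and 1.42 CPM. Of the 14 listed genes 4 passed the level limit, with a median of 0.804. Of the 4, 2 were at least 2-fold lower and none higher, beside 0.348% and 2.28% of all genes compared.

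The Runx genes themselves were at lower levels in tag 4. Runx1 was at 52.9 CPM in tag 3 and 39.5 CPM in tag 4, and over the other 6 tags it ran from 33.7 CPM in tag 2 to 121 CPM in tag 8. Runx3 was at 136 CPM in tag 3 and 74.7 CPM in tag 4, the lowest of the 8 tags. Runx2 was under the level limit at 18 and 11.3 CPM. The ratios were 0.747 (0.693 to 0.804) for Runx1 and 0.547 (0.520 to 0.576) for Runx3, and Cbfb stood at 1.17. With TMM or DESeq2 scaling Runx3 came to lie past 2-fold lower. The counts do not separate a transcript of a vector from that of the mouse gene, and a guide cut need not lower a transcript, so these levels check no condition. Bcl2, which all cultures also carried as a transgene, was at 92.3 and 169 CPM.

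Pgam2, the muscle form of the glycolytic enzyme phosphoglycerate mutase, had the second-highest ratio, and its UMIs in tag 4 were spread over many cells. Its level over the 8 tags in order was 2.22, 318, 9.91, 480, 4.58, 2.62, 4.08 and 3.73 CPM. Tags 2 and 4 were high and the other 6 were at or below 9.91 CPM. In tag 4, 651 of 1170 cells had a Pgam2 UMI, and in tag 3 117 of 1312 had 1. The 5 cells with the most held 6.00% of the Pgam2 UMIs of tag 4 and 41.8% of those of tag 3. The ratio was 48.5 (44.0 to 53.5). The common form, Pgam1, did not go with it, at 530 CPM in tag 3 and 478 CPM in tag 4.

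Several other genes were high in tags 2 and 4 together. Gsn, the actin-severing protein gelsolin, was at 25.8 CPM in tag 3 and 191 CPM in tag 4, and tag 2 was higher at 328 CPM. Ldhb, a subunit of lactate dehydrogenase, was at 10.1 and 59.5 CPM with 44.2 CPM in tag 2, and tag 3 was the lowest of the 8 tags. Igfbp7, a secreted binding protein, was at 14.2 and 66.2 CPM with 57.7 CPM in tag 2, and Tmem191c was at 6.79 and 35.3 CPM with 31.5 CPM in tag 2. For Gsn, Ldhb, Igfbp7 and Tmem191c the ratios of tag 4 to tag 3 were 7.43, 5.88, 4.68 and 5.20. Gsn is also a stromal gene, and 78.3% of stromal-marker cells without a called tag had a Gsn UMI after thinning. Without the cells that carried Gzmc, mast, stromal or granulocyte markers, the ratios of Gsn and Igfbp7 were 11.5 and 7.40 and that of Pgam2 was 95.8. This removal, by limits on unthinned UMIs, left 708 cells of tag 3 and 762 of tag 4.

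Promoter sequences are shown for Pgam2, because its ratio was large and many cells of tag 4 held it, and for Gzmc, because it defines the cells taken out below. Each run covers 250 bases before to 50 after the gene's start in RefSeq on GRCm38.p6, in the direction of transcription, and capitals mark the letters TGTGGT or their reverse complement ACCACA, a core of the Runx motif.
Pgam2, chr11:5803747-5804046, minus strand: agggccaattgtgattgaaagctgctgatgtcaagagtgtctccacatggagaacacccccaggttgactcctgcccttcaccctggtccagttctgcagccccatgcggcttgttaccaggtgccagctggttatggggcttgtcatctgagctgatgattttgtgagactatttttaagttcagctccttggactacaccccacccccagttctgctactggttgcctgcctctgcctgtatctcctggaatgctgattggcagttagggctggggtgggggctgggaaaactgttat
Gzmc, chr14:56234608-56234907, minus strand: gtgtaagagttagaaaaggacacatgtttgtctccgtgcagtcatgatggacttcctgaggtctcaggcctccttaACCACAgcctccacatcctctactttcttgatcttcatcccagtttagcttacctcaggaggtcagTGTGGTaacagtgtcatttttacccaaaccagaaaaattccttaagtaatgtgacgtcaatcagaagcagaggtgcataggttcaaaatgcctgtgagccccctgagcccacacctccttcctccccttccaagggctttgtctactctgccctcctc
The Gzmc window held 2 matches and the Pgam2 window none. The letters occurred on either strand in 16.8% of 32851 windows of this length, and in 18.9% of 27025 genes with a window. Of the 15 genes highest in tag 4, 13 had a window and 4 of these held a match, and of the 15 lowest 10 had a window and 3 held 1. A match is a description of letters, and binding was not measured here.

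Gzmc, which encodes granzyme C, a protease of activated cytotoxic lymphocytes, was the third gene by ratio, and its UMIs sat in few cells. It stood at 18.3 CPM in tag 3 and 453 CPM in tag 4, against 0.412 to 10.4 CPM in the other 6 tags. Cells with at least 5 Gzmc UMIs, called Gzmc cells here, made up 83 of 1170 cells in tag 4 (7.09%, exact binomial interval 5.69 to 8.72%) and 22 of 1312 in tag 3 (1.68%, 1.05 to 2.53%). Tags 1, 2, 5, 6, 7 and 8 had 1, 0, 7, 0, 2 and 1 such cells. In the tags without any, a count of 0 allows a share of up to 0.359% in tag 2 and 0.395% in tag 6 by the exact upper bound. The Gzmc cells held 99.3% of the Gzmc UMIs of tag 4 and 89.6% of those of tag 3, and the cell with the most had 1195 and 155. Few cells lay at the limit: in tag 4, 7 cells had 3 or 4 UMIs and 4 had 5 or 6, and in tag 3 there were 4 and 4.

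Summed over the Gzmc cells of tag 4, genes of cytotoxic T cells and NK receptor genes were both high. Whether single cells held both was not tested. Cd8a, a coreceptor subunit, was at 364 CPM in them and 12.0 CPM in the other cells of tag 4, and Trac, the alpha constant region, was at 320 and 12.5 CPM. Apart from Gzmc itself, which defines these cells, the 10 genes with the highest ratio between them and the other cells were Ifng, Ccl4, Ccl3, Zbtb32, Gm19585, Prf1, Cd8b1, Klrc1, Ncr1 and Xcl1, from 205 for the cytokine gene Ifng to 31.0 for the chemokine gene Xcl1. Some of these ratios rested on few cells: 5 cells held 90.9% of the Ifng UMIs and 72.4% of the Ccl4 UMIs of tag 4. Gzmb, granzyme B, was at 4035 CPM against 166 CPM. Cd3g did not separate the cells, at 723 and 744 CPM. Its partners did, with Cd3d at 699 against 188 CPM and Cd3e at 210 against 22.3 CPM. T-progenitor genes were lower in the Gzmc cells: Bcl11b had 25.5 against 138 CPM, Tcf7 64.3 against 219 CPM and Trdc 10.3 against 106 CPM. Pgam2 had 21.9 against 523 CPM and Mcpt1 had no UMI in them. The gate that defines these cells is a gene among these readouts, and their median of 22999 UMIs was above the 19274 of the other cells.

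Taking out the Gzmc cells took most cytotoxic genes off the higher list and left Cd3g, Cd3d, Bcl11b, Tcf7 and Gata3 on it. Without these cells 5167 genes were compared, of which 120 (2.32%) were at least 2-fold higher in tag 4 and 14 (0.271%) at least 2-fold lower. The lists with and without them shared 95 higher genes, 80.5% of the first and 79.2% of the second, and 13 lower genes, 72.2% and 92.9%. Genes no longer on the higher list included Gzmb, Ccl3, Ccl4, Xcl1, Cd8a, Cd8b1, Trac, Klrd1, Klrk1, Pdcd1 and Cd3e. The ratio of Gzmc itself went from 24.8 to 1.8, a fall that follows from the choice, since Gzmc defined the cells taken out. Ccl4 went from 6.18 to 1.68, Gzmb from 2.57 to 1.13 and Cd8a from 3.32 to 1.57. Klrd1 and Xcl1 went from 2.86 and 4.42 to 1.997 and 1.989, just under 2-fold. In all cells the ratios of Gzmc and Ccl4 depended on the weight of deep cells, with 15.6 and 3.49 as means over cells and 14.2 and 4.07 after thinning, and those of Ccl3 and Xcl1 were 4.02 and 2.59 after thinning. Cd8b1 kept a ratio of 2.21 and Cd3e one of 4.56, but both then lay under the level limit. Cd3g, Bcl11b and Pgam2 stood at 13, 10.8 and 51.9 without the Gzmc cells, each above its value with them. Among the lower genes, Mef2c and Btk, a B-cell and myeloid kinase, went to 0.525 and 0.509. Cd163l1, a scavenger receptor gene, and Tcrg-C4 and Trat1 joined the higher list.

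**Figure D3:**
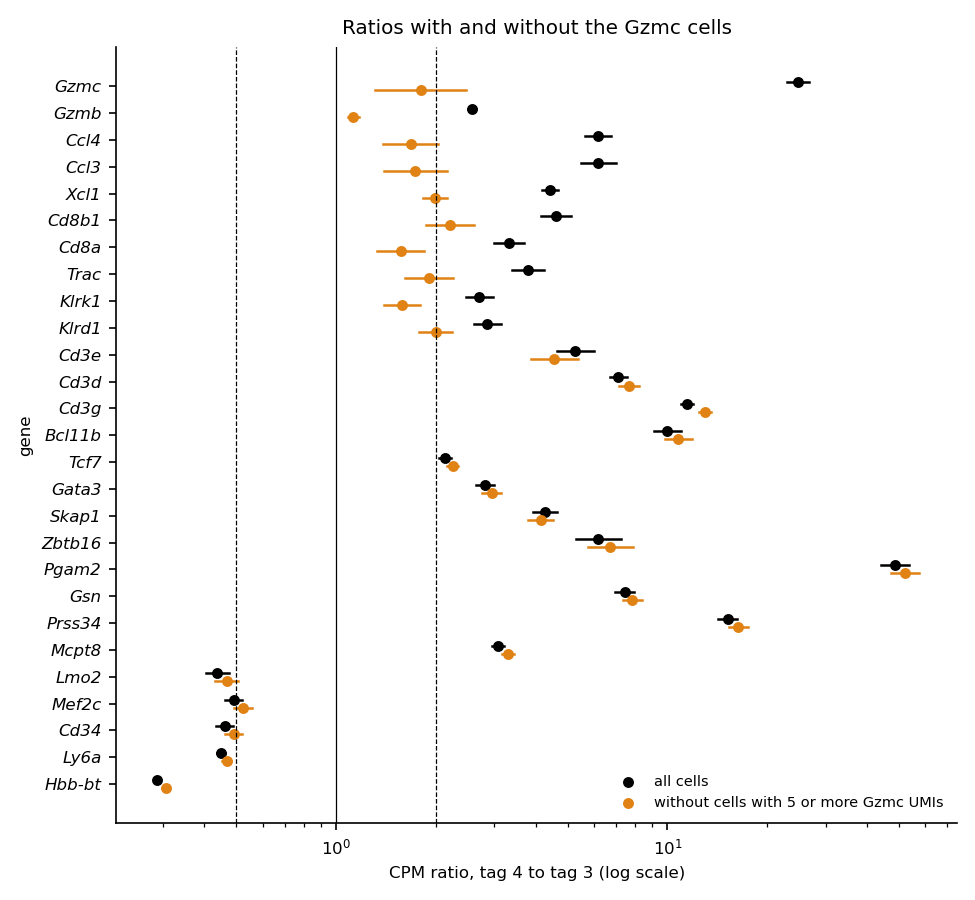
Ratio of tag 4 to tag 3 (x axis, log scale) of 27 genes in all cells (black) and without cells with at least 5 Gzmc UMIs (orange), with bars for 95% counting intervals and dashed lines at 2-fold. The cytotoxic genes from Gzmc to Klrd1 move towards 1, for Gzmc by the choice of cells, whereas Cd3g, Bcl11b, Gata3 and Pgam2 do not.

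Granzymes and cytotoxic genes as a list showed the same dependence. Of 22 listed genes 11 passed the level limit in all cells, 6 were at least 2-fold higher and none lower, beside 2.28% and 0.348% of all genes, with a median of 2.35. Gzmc is 1 of the 6 and defined the cells taken out, so its own fall follows from the choice. Without the Gzmc cells 8 passed and Ctsw, cathepsin W, was the 1 that was at least 2-fold higher, beside 2.32% of all genes, with a median of 1.32. Gzma was the most abundant granzyme and differed little in this respect, at 1033 CPM in tag 3 and 1844 CPM in tag 4, with a ratio of 1.78 in all cells and 1.83 without the Gzmc cells. Ccl5, a chemokine of effector cells, was lower in tag 4 at 46.2 and 28.2 CPM.

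Mast cell and basophil protease genes gave the largest ratio of all, from very few cells. Mcpt1, a mast cell protease gene, was at 0.328 CPM in tag 3, from 14 UMIs, and 109 CPM in tag 4, a ratio of 333 (198 to 609). Only 24 cells of tag 4 had a Mcpt1 UMI, and 5 of them held 94.2% of its UMIs. Without those 5 cells the ratio was 19.2. Tags 8 and 2 also had Mcpt1, at 47.4 and 22.6 CPM, and the other 4 were at or below 0.280 CPM. Prss34, a basophil protease gene, was at 23.4 CPM in tag 3 and 355 CPM in tag 4, from 38 and 42 cells, and tag 5 had 93.3 CPM. Its ratio of 15.2 went to 0.953 without the cells with at least 10 UMIs of mast or basophil markers, and that of Mcpt8, a further basophil protease gene, from 3.08 to 0.485. The cells taken out were 208 of tag 3 and 221 of tag 4. Prss34 and Mcpt8 are among the markers that picked these cells, so a lower ratio follows in part from the choice. Mcpt1 is not among the markers, and its ratio was 56.2 without the same cells. Without the Gzmc, mast, stromal and granulocyte marker cells together it was 43.4. The 5 cells with the most held 29.8% of the Prss34 UMIs of tag 4 and 96.0% of those of tag 3. Requiring the top hashtag to be 5 times the second gave 31.5 for Prss34, 5.04 for Mcpt8 and 666 for Mcpt1.

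The stromal and granulocyte genes on the higher list were at ratios close to 2, and each one named here is itself a marker that picked the cells taken out, so a lower ratio without them follows in part from the choice. Sparc and Bgn, extracellular matrix genes, had ratios of 2.05 and 2.08. They were at 0.774 and 1.02 without the 25 cells of tag 4 and 26 of tag 3 that had at least 10 UMIs of OP9 markers. Serpinh1 and Cald1, also OP9 markers, had ratios of 2.21 and 2.20. Serpinh1 was at 1.1 without the same cells. The lowest value of Cald1 under the 16 alternatives was 1.27, without the 5 cells with the most of its UMIs. Cald1 thus stayed higher in tag 4 without the OP9-marker cells. Elane and Chil3, genes of neutrophil precursors, had ratios of 2.17 and 2.22, and of 1.11 and 0.707 without the 115 cells of tag 4 and 408 of tag 3 with at least 10 UMIs of granulocyte markers. The 5 cells with the most held 77.8% of the Elane UMIs and 76.7% of the Chil3 UMIs of tag 4, and Elane had a ratio of 1.18 after thinning.

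Several innate lymphoid genes were higher in tag 4, most of them at low levels. Zbtb16, which encodes PLZF, a factor of innate lymphoid precursors and innate-like T cells, was at 4.83 CPM in tag 3 and 29.8 CPM in tag 4, and tag 2 followed with 21.3 CPM. Its ratio was 6.17 in all cells and 6.71 without the Gzmc cells, which held 3 of its 779 UMIs in tag 4. Itgae, the integrin CD103, had 2.88 and 25.5 CPM, with 11.8 CPM in tag 2. Rora, a factor of type 2 innate lymphoid cells, had 1.08 and 4.97 CPM, whereas the type 2 cytokine gene Il13 had 1.57 and 0.536 CPM. The Il13 UMIs came from only 10 and 5 cells, and the Il13 ratio ran from 0.160 to 3.81 over the 16 alternatives. Of the 14 listed innate lymphoid factors 4 passed the level limit, with a median of 1.56. Of the 4, Gata3 alone was at least 2-fold higher, beside 2.28% of all genes compared. Of 21 surface and cytokine genes 7 passed, with a median of 1.92. The NK receptor genes Klrd1 and Klrk1, and Xcl1, were the 3 of these at least 2-fold higher, beside the same 2.28%. None of the 3 was on the list without the Gzmc cells. Klrd1 and Xcl1 then stood just under 2-fold, at 1.997 and 1.989, and Klrk1 at 1.58. Klrd1 and Klrk1 were then also under the level limit.

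**Figure D4:**
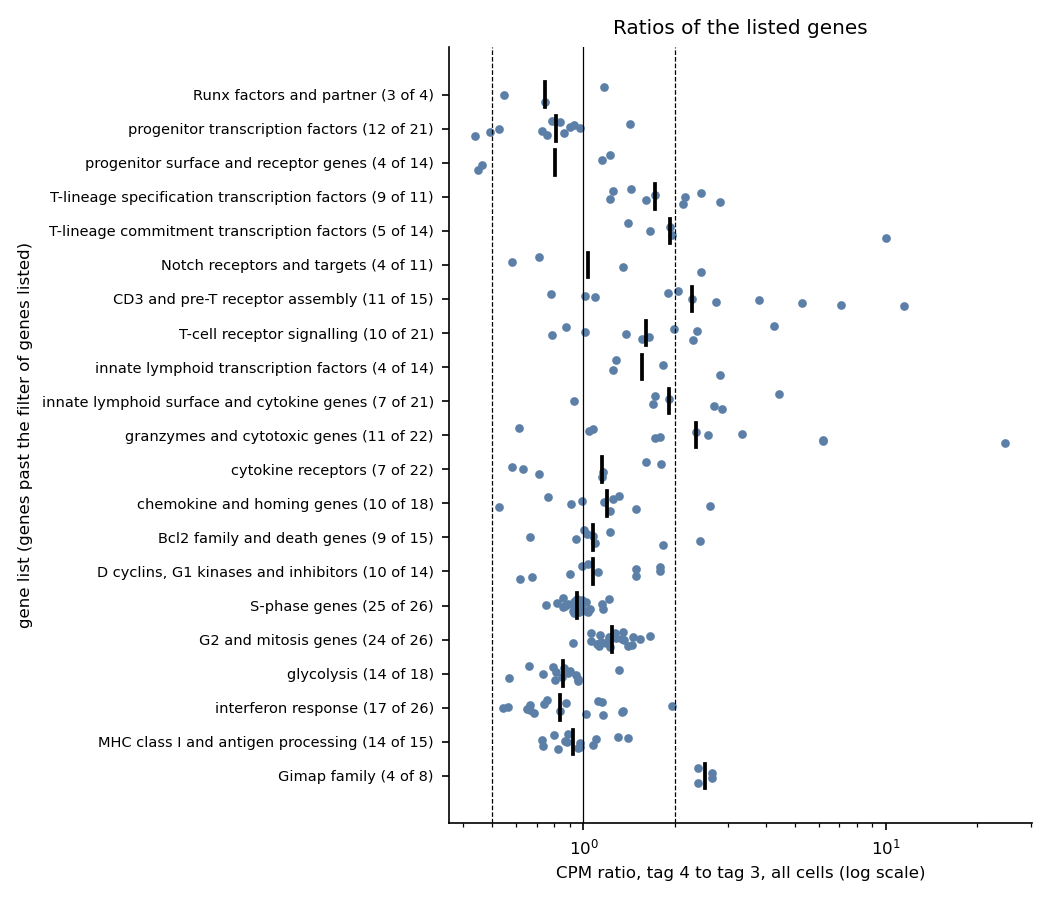
Ratio of tag 4 to tag 3 in all cells (x axis, log scale) for the genes of 21 lists that passed the level limit, with 1 point per gene, a black bar at the median of the list and dashed lines at 2-fold. The CD3 and pre-T receptor genes have a median of 2.28 and the progenitor transcription factors of 0.812, while S-phase genes gather near 1.

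The Gimap family, small GTPases of lymphocyte survival, was higher in tag 4 in all 8 listed members. Gimap1 had 57.9 and 139 CPM, Gimap9 48.6 and 117 CPM, Gimap5 15.3 and 40.9 CPM and Gimap6 12.3 and 32.6 CPM. All 4 genes of the 8 listed that passed the level limit were at least 2-fold higher, beside 2.28% of all genes compared. Their median was 2.52, and they were past 2-fold with TMM and DESeq2 scaling too. Gimap3 and Gimap4, under the limit, went from 2.98 and 3.29 to 1.38 and 2.00 without the Gzmc cells. Genes of a family with near-identical copies, such as the Gimap, granzyme, Serpina3 and globin genes, can share reads, so the split between their members is uncertain.

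Receptors, homing and survival genes differed gene by gene. Ifngr1, a chain of the interferon gamma receptor, was at 62.8 and 113 CPM and Tgfbr1 at 27.1 and 43.5 CPM, while Il21r had 29.96 and 17.4 CPM and Il4ra 41.2 and 26.0 CPM. None of the 7 cytokine receptors past the level limit, of 22 listed, was 2-fold apart, and their median was 1.15. Of 18 listed homing genes 10 passed the limit, with a median of 1.196. Klf2, a factor of lymphocyte trafficking, was the 1 at least 2-fold higher, at 11.2 and 29.1 CPM, beside 2.28% of all genes compared. Ccr2, a monocyte and progenitor chemokine receptor, was lower at 52.0 and 27.4 CPM. Among 9 genes of the Bcl2 family and cell death past the limit, of 15 listed and with a median of 1.08 that became 0.979 with TMM scaling, Bcl2a1b had a ratio of 2.42 in all cells and 1.49 without the Gzmc cells, and the pro-apoptotic Bak1 had 0.663.

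The genes lowest in tag 4 relative to tag 3 were led by a globin gene. Hbb-bt, an adult beta globin gene, was at 2175 CPM in tag 3, the highest of the 8 tags, and 626 CPM in tag 4. Tag 2 was lower still, at 350 CPM, and the remaining 5 ran from 781 to 1693 CPM. The ratio was 0.288 (0.283 to 0.293). Hbb-bs, the other adult beta globin gene, was low in both tags at 3.21 and 1.07 CPM, with a ratio of 0.334. The alpha globin genes were too low to compare: Hba-a1 was at 0.0234 and 0.153 CPM and Hba-a2 had no UMI in either tag. In tag 3, 1115 of 1312 cells had a Hbb-bt UMI and the 5 cells with the most held 2.44% of them.

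Several other lower genes were also low in tag 2. Cox4i2, an alternative subunit of cytochrome c oxidase, was at 66.9 CPM in tag 3 and 20.5 CPM in tag 4, with 9.60 CPM in tag 2 and 175 CPM in tag 6. Ctla2a, which encodes a cysteine protease inhibitor, was at 219 and 76.1 CPM, with 36.2 CPM in tag 2 and 476 CPM in tag 7. The transglutaminase gene Tgm2, the tetraspanin gene Tspan32, the urea cycle gene Ass1 and the adenosine deaminase gene Ada had ratios of 0.344, 0.353, 0.411 and 0.441. For Hbb-bt, Cox4i2, Tgm2, Ctla2a, Tspan32, Ass1 and Ada, tag 2 was the lowest of the 8 tags. Without the 5% of cells with the most UMIs the ratio of Cox4i2 was 0.198. Serpina3g, an interferon-induced protease inhibitor gene, and its relative Serpina3f had ratios of 0.439 and 0.478, the necroptosis gene Mlkl 0.483 and the channel gene Fam26f 0.401. For the lymphocyte factor Pou2f2 the ratio was 0.487.

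The shares of cells with a UMI were compared after thinning each cell to 5000 UMIs, which left 1291 cells of tag 3 and 1122 of tag 4 and left out 21 and 48 shallower cells. For comparison, 336 cells without a called tag that had at least 100 UMIs of OP9 stromal markers were thinned in the same way. Whether these stromal-marker cells express the genes themselves was not tested. Before thinning, the cells used had medians of 31010, 20018.5 and 31050 UMIs. Cd3g was detected in 10.8% of tag 3 cells, 51.6% of tag 4 cells and 3.27% of the stromal-marker cells. Bcl11b was detected in 6.04%, 40.3% and 2.08%, and Pgam2 in 2.40%, 45.4% and 1.79%. Pgam2 in tag 3 was thus close to the share in the stromal-marker cells. Unthinned, Cd3g was detected in 19.1% of tag 3 and 59.6% of tag 4 cells, Bcl11b in 15.6% and 58.2%, and Pgam2 in 9.06% and 56.9%.

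Positive cells also held more UMIs of these genes in tag 4. After thinning a cell with Cd3g held a mean of 4.09 Cd3g UMIs in tag 3 and 10.01 in tag 4, and a cell with Pgam2 held 1.77 and 6.68 of Pgam2. At least 3 Cd3g UMIs were found in 5.34% of thinned tag 3 cells and 42.0% of thinned tag 4 cells, and at least 3 Pgam2 UMIs in 0.465% and 31.6%. At the other end, 48.4% of tag 4 cells had no Cd3g UMI, 59.7% no Bcl11b UMI and 54.6% no Pgam2 UMI. Gata3 was detected in 15.9% and 36% of cells and Tcf7 in 32.1% and 57.0%, against 5.36% and 8.63% of stromal-marker cells. Zbtb16 was detected in 2.32% and 14.7%, against 0.595%.

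Progenitor genes were found in fewer cells of tag 4 at equal depth. Cd34 was detected in 40.05% of tag 3 cells, 15.7% of tag 4 cells and 9.82% of stromal-marker cells, and Lmo2 in 23.6%, 8.91% and 7.14%. Lmo2 in tag 4 was near the share in the stromal-marker cells. Hbb-bt was detected in 73.6%, 26.5% and 19.6%, and at least 3 of its UMIs in 59.95%, 14.9% and 8.93%. Kit was detected in 17.0% and 17.3% of cells, against 2.08%. Runx3 was detected in 50.3% of tag 3 and 24.5% of tag 4 cells, against 9.82%. Unthinned, the shares in tags 3 and 4 were 75.4% and 35.4% for Cd34, 56.0% and 20.1% for Lmo2, and 94.2% and 53.3% for Runx3.

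**Figure D5:**
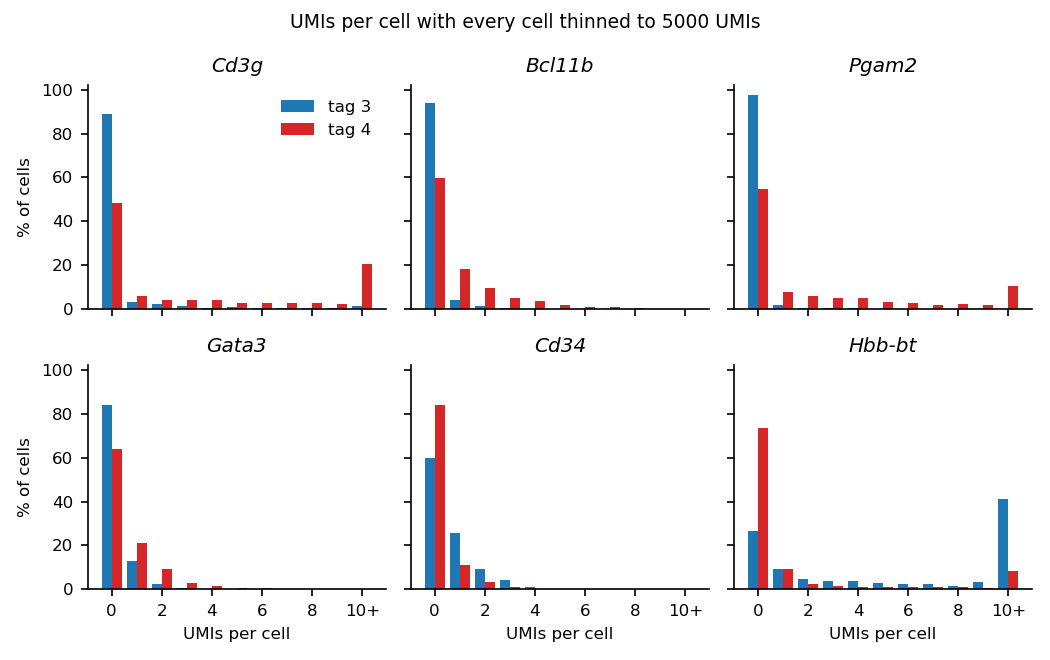
Share of cells (y axis, %) by the number of UMIs of 6 genes (x axis, with 10 or more in the last bin) in tag 3 (blue) and tag 4 (red), with every cell thinned to 5000 UMIs. Cd3g reached 10 or more UMIs in 20.6% of tag 4 cells and 1.24% of tag 3 cells, and Hbb-bt in 8.11% and 41.0%.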

How the data were processed

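Cells of 8 hashtagged cultures were profiled in 1 mRNA and 1 hashtag library per experiment with 10x Chromium v3, per the labels. The deposited matrices hold raw UMI counts per gene and cell, and the hashtag tables, also deposited as raw counts, give 8 columns for each cell. Whether these count molecules or reads, and the filters on cells, are not given in the sources used here. Cell Ranger 3.0.0 and GRCm38 (mm10) are named, per the submitters' processing notes. Of 31053 gene IDs, 30934 matched the name table used. From these counts UMIs were summed over the cells of each tag and scaled to CPM by the total (1e+06), so that a sum gives deeper cells more weight. Depth per tag is given in the report. Between 2 hashtags, doublets were removed by the ratio rule, which left 1879 of 10214 cells without a called tag. Doublets within a hashtag were not called, and an alternative left out the 5% of cells with the most UMIs.

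Genes had a mean of at least 20 CPM over tags 3 and 4, and a ratio needed at least 10 UMIs in the lower tag. Intervals are exact: Poisson-based conditional for ratios and Clopper-Pearson for shares (scipy 1.17.1). A gene was called at 2-fold, with no test, since there was 1 culture a side. Scaling alternatives used edgeR 4.0.16 and DESeq2 1.42.0 in R 4.3.3, for factors alone. The text names the 15 highest and 15 lowest ratios in all cells, the 10 and 10 without Gzmc cells, Runx1, Runx2, Runx3, Cbfb and Bcl2, list genes 2-fold apart with up to 4 more per list by level, the 10 genes highest in Gzmc cells, and markers. Other genes named, below the level limit or within lists, were chosen after their values were seen. The tags, 21 gene lists, 10 marker lists and this rule were chosen with earlier results of these data known. The ratio and interval code was tested on simulated data. Alternatives covered the hashtag call, cell filter, scaling, averaging, depth, marker-carrying cells, level limit, fold and the Gzmc limit. Experiment 1 served only for shared barcodes and Gzmc cells. 1 listed gene is not reported here.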

Additional observations from a re-analysis of the deposited data

Results flagged for a closer look

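Gzmc cells also occurred outside the tagged cells of experiment 2. Of 1879 cells of experiment 2 without a called tag, 33 had at least 5 Gzmc UMIs (1.76%, interval 1.21 to 2.46%), and 22 of these had at least 20. Their culture is unknown, and they enter no comparison. Among the 8797 tagged cells of experiment 1, 7 had at least 5 Gzmc UMIs (0.0796%, interval 0.0320 to 0.164%), and none had 20. Both were picked out because they lie in data that the comparison of tags 3 and 4 does not use.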

How the results depend on the processing

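The counts of genes at least 2-fold apart depended on the scaling, the level limit and the weight of deep cells. In the order higher and lower in all cells, then higher and lower without Gzmc cells, they were 181, 40, 181 and 41 for means over cells, 358, 44, 383 and 41 at a level of at least 5 CPM, and 41, 7, 42 and 8 at 50 CPM. A limit of 1.5-fold gave 328, 106, 344 and 103, and 3-fold gave 38, 2, 35 and 2. Lower genes alone moved by over 1.5 times with TMM (34 and 32), with DESeq2 factors (35 and 32), with thinning to 5000 UMIs (46 and 46) and without the 5% of cells with the most UMIs (33 and 33). Lower genes without Gzmc cells were 22 with a hashtag ratio of 5 and 28 without granulocyte-marker cells, and lower genes were 44 without Gzmc, mast, stromal and granulocyte marker cells together. The Gzmc cells were 5.17% of tag 4 and 0.620% of tag 3 after thinning, 11.7% and 6.25% at a limit of 1 UMI, and 5.04% and 0.762% at 20 UMIs. Of 63 named genes past 2-fold in all cells, 32 stayed past it under each of the 16 alternatives, among them Cd3g, Bcl11b, Pgam2, Gata3, Cd34 and Hbb-bt, and 24 moved by over 1.5 times under at least 1.

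Among the named genes past 2-fold in all cells, the values that crossed 1 came from leaving out cells; scaling moved genes nearer 1 across it, as the list counts with TMM show. Without mast-marker cells Prss34 was at 0.953 and Mcpt8 at 0.485, without granulocyte-marker cells Chil3 was at 0.707, and without stromal-marker cells Sparc was at 0.774. Without the 4 kinds together, a setting added after seeing the data, Prss34 was at 0.861, Gzmb at 0.719, Elane at 0.961, Chil3 at 0.792, Mcpt8 at 0.431, Sparc at 0.824 and Bgn at 0.998. Without cells with 1 Gzmc UMI or more Ccl4 was at 0.973. Without the 5% of cells with the most UMIs Elane was at 0.921 and Chil3 at 0.920, and without the 5 cells with the most UMIs of the gene, also added later, they were at 0.482 and 0.518. For these values the cause was not tested further. No paired analysis was possible because each side is 1 culture with no replicate number. Depth limits genes near 1 UMI per cell at 5000 UMIs, and counting intervals do not cover variation between cultures.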

Other observations

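Mitotic genes were slightly higher in tag 4 and S-phase genes were near equality. Of 24 genes of G2 and mitosis past the level limit, of 26 listed, 23 had a ratio above 1, with a median of 1.24, and 21 did so with TMM scaling. Nusap1, a spindle protein gene, had the highest ratio at 1.66, with 81.8 and 136 CPM, followed by the kinetochore gene Cenpf at 1.54. Of 25 S-phase genes past the limit, of 26 listed, 7 were above 1 and the median was 0.950, which became 0.865 with TMM scaling and had 14 genes above 1 without the 4 kinds of marker cells. None of either list was 2-fold apart, and 2.63% of all genes were. The D cyclins differed in direction: Ccnd1 and Ccnd2 were at 39.3 and 234 CPM in tag 3 against 24.2 and 158 CPM in tag 4, and Ccnd3 was at 147 against 218 CPM. The cell cycle inhibitor genes Cdkn1a and Cdkn2d both had ratios of 1.79. None of the 10 genes of this list past the limit, of 14 listed, was 2-fold apart, and the median was 1.08, or 0.981 with TMM scaling.

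Glycolysis genes were slightly lower in tag 4, with 13 of the 14 past the limit, of 18 listed, below 1, and a median of 0.857. Pfkl, the liver form of phosphofructokinase, had the lowest ratio at 0.566, and Eno1, enolase, was the exception at 1.31. Interferon response genes differed gene by gene. The guanylate-binding protein genes Gbp2 and Gbp3 and the GTPase gene Igtp had ratios of 0.540, 0.564 and 0.653, whereas Irf7 and Isg15 had 1.02 and 1.16 and Ifit1, under the level limit, stood at 10.1 and 19.5 CPM. Of 26 interferon response genes 17 passed the limit, none was 2-fold apart in all cells, and the median was 0.837. Gbp4 departed from its relatives with a ratio of 1.96, and 2.08 without the Gzmc cells. Among MHC class I genes, H2-K1 was at 1199 CPM in tag 3 and 986 CPM in tag 4 and the immunoproteasome gene Psmb10 at 386 and 282 CPM, while H2-Q6 and H2-Q7 had ratios of 1.41 and 1.30. The list had a median of 0.923 over 14 genes past the limit, of 15 listed.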
